A study of Homo sapiens with 8 samples.

Results

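The endoplasmic reticulum (ER) is where a beta cell folds its proinsulin, and 43 genes of ER protein folding, translocation and degradation were followed in the human beta-cell line EndoC-βH5. The members are the rows with the chosen symbols in the expression table, which holds 16525 genes left after a filter on low values. That all 43 are present is therefore not a result. They comprise 10 chaperones and co-chaperones, 2 lectin chaperones, 6 enzymes of disulfide chemistry, 11 genes of ER-associated degradation, 9 genes of the translocon and its partners and 5 subunits of the signal peptidase. Untreated control cells (4 libraries) were compared with cells exposed to IL-1β, IFNγ and TNFα together (4 libraries), all cultured for 48 h and sequenced as bulk RNA. EndoC-βH5 is a single line from fetal pancreatic tissue, immortalised with the SV40 large T antigen and human telomerase and later freed of both transgenes. The labels number replicates in each group but do not say that they were separate thaws or cultures, so p-values measure the spread between these samples, which may be technical. Levels are CPM values, the reads on a gene for every 1000000 reads of its library total, which includes reads outside these 16525 genes. In the table each control library shares a name stem with 1 cytokine library, and these pairs are called A, B, C and D; the names of A and B end alike, as do those of C and D.

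Proteins bound for the ER enter through the Sec61 translocon, lose their signal peptide to the signal peptidase, and are folded by the chaperone BiP with its J-domain partners, by GRP94, by the lectin chaperones calreticulin and calnexin, and by protein disulfide isomerases that are reoxidised by ERO1 oxidases. Chains that fail to fold are recognised by EDEM proteins and OS9 and drawn back to the cytosol through the HRD1 complex for degradation. When unfolded proteins build up, the sensors IRE1, ATF6 and PERK raise the transcription of many of these genes, in part through short promoter elements.

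Promoter windows of 300 bases (250 before to 50 after the RefSeq start, GRCh38.p14) were held for 39 of the 43 members; PDIA3, DERL1, DERL3 and SPCS1 had no entry. Both strands were searched for the ER stress element (ERSE, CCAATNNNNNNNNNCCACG), ERSE-II (ATTGGNCCACG), the unfolded protein response element (UPRE, TGACGTGG), the gamma-activated site (GAS, TTCNNNGAA) and the interferon-stimulated response element (ISRE, GAAANNGAAA). ERSE was found in 27 of all 35116 windows (0.0769%) and in 6 members (15.4% of those with an entry), namely CALR, CANX, CRELD2, ERO1B, HSP90B1 and PDIA6. Here and below, shares of windows count windows, while shares of members count genes with a match in any window, so the units differ. ERSE-II was found in 0.0541% of all windows and in 3 members (7.69%), HERPUD1, HYOU1 and SDF2L1. UPRE was found in 0.729% of all windows and in 5 members (12.8%), DNAJC10, HYOU1, SEC62, SSR3 and SSR4. GAS was found in 7.66% of all windows and in 3 members (7.69%), EDEM2, SEC61G and SPCS3, and ISRE in 3.57% of all windows and in no member. The 3 ER elements share the letters CCACG or its complement, and 1 UPRE of HYOU1 overlaps one of its ERSE-II matches. All ERSE and ERSE-II matches of the members are shown, with that of HSPA5, whether or not the gene was called. The UPRE and GAS matches are not shown, among them the GAS of EDEM2, which was called higher. The ERSE of XBP1 is not shown either. Capitals mark the motif, read 5′ to 3′ on the strand of the gene. Only the motif is given where the flanks touch an annotated exon.
CALR, ERSE, chr19:12938364-12938422, gene on the plus strand: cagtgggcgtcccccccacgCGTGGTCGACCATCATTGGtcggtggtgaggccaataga
HSP90B1, ERSE, chr12:103930216-103930234, gene on the plus strand: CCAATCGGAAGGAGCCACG
HSP90B1, ERSE, chr12:103930321-103930339, gene on the plus strand: CGTGGTGCGGCGCGATTGG
PDIA6, ERSE, chr2:10812853-10812871, gene on the minus strand: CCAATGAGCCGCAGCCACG
CANX, ERSE, chr5:179698778-179698796, gene on the plus strand: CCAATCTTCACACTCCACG
ERO1B, ERSE, chr1:236282163-236282208, gene on the minus strand: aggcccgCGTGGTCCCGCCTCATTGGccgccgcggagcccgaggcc
CRELD2, ERSE, chr22:49918534-49918592, gene on the plus strand: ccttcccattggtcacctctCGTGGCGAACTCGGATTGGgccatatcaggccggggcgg
HERPUD1, ERSE-II, chr16:56932025-56932035, gene on the plus strand: ATTGGGCCACG
SDF2L1, ERSE-II, chr22:21642094-21642144, gene on the plus strand: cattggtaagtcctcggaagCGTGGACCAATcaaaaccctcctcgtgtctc
HYOU1, ERSE-II, chr11:119057254-119057304, gene on the minus strand: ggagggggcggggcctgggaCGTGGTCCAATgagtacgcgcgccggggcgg
HYOU1, ERSE-II, chr11:119057360-119057410, gene on the minus strand: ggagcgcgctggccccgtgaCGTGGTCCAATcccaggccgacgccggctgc
HSPA5, ERSE, chr9:125241371-125241429, gene on the minus strand: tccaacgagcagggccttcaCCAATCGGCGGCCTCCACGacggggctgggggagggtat
The motif lay 67 bases before the start in PDIA6, 106 in HERPUD1, 206 in CALR and 224 in ERO1B. Of these 9 members with an ERSE or ERSE-II, 4 were called higher with cytokines (CALR, HSP90B1, PDIA6 and HERPUD1), 1 was called lower (ERO1B) and 4 were not called (CANX, CRELD2, HYOU1 and SDF2L1). Of the other 34 members 5 were called higher and 1 lower, and over all genes the shares were 9.52% and 17.5%. Those 34 include the 4 members without an entry, which were not searched. Of these PDIA3 and DERL1 were called higher, so absence of the motif is not known for all 34. The difference between these sets was not tested.

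With cytokines, 9 of the 43 members were higher and 2 were lower. The risers were the chaperone HSP90B1 and the co-chaperone SIL1, the lectin chaperone CALR, the disulfide isomerases PDIA3 and PDIA6, and HERPUD1, EDEM1, EDEM2 and DERL1 of the degradation machinery, with log2 fold changes from 0.50 (CALR) to 1.19 (PDIA3). Both members that fell were the ERO1 oxidases, ERO1A (-0.51) and ERO1B (-0.71). No translocon or signal peptidase gene was called. The call required a log2 fold change beyond 0.5 in either direction with an adjusted p below 0.05 in limma on log2(CPM + 0.1), with Benjamini-Hochberg adjustment over all 16525 genes. Of all genes 27.0% were called, 9.52% higher and 17.5% lower, against 20.9% and 4.65% of the members. The median log2 fold change of the members was 0.34, against -0.17 over all genes, and 38 of the 43 were positive. In all, 19 members had an unadjusted p under 0.05 (limma). The share of all genes under that level was not counted, so this number cannot be read as an excess among the members.

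The count of calls changed with the scaling and with the pairing. Scaling by the trimmed mean of M-values (TMM) shifted the median of all genes by 0.15 on the log2 scale, to -0.02, and the median of the members to 0.49. With TMM 17 members were called higher and 1 lower, while 13.0% of all genes were called higher and 11.7% lower. With a block for the pairs, 16 members were called higher and 2 lower on CPM (11.6% and 23.8% of all genes), and 20 higher and 1 lower with TMM as well (15.8% and 16.4% of all genes). With TPM 4 members were called higher, and their share of 9.3% was near the 8.28% of all genes. Taken pair by pair, 32 members were higher with cytokines in all 4 pairs (22.2% of all genes) and 2, the ERO1 oxidases, were lower in all 4 (43.6% of all genes). The 4 cytokine libraries lay wholly above the 4 control libraries in 6 members (CALR, PDIA3, PDIA6, HERPUD1, EDEM1 and DERL1; 10.8% of all genes) and wholly below in the ERO1 oxidases (21.9% of all genes). With TMM the counts without overlap were 15 higher and 2 lower (16.3% and 15.1% of all genes).

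The number of calls also turned on single libraries, among which pair C had the highest levels. The summed CPM of the 43 members was 4547, 4792, 7231 and 5640 in control libraries A to D and 6457, 6322, 9188 and 7086 in cytokine libraries A to D, a mean of 5552 ± 1213 (SD, n = 4) against 7263 ± 1326 (SD, n = 4). Each cytokine library was above its own control, and control C was above the cytokine libraries A, B and D. The number of members called was 18 without control C, where 25.9% of all genes were called. It was 7 without control A or cytokine C (26.3% and 24.6% of all genes) and 6 without control B or cytokine D (23.9% and 24.8%), below the share of all genes in each. Called higher were 17 members without control C (39.5% of the members, against 10.3% of all genes), but 5 without control A, cytokine C or cytokine D (11.6%, against 8.57%, 8.98% and 8.45%) and 4 without control B (9.3%, against 8.32%), which is near the share of all genes. With both libraries of pair C left out 14 were called (23.6% of all genes), of which 13 were higher (9.56% of all genes). The members' median was 0.49 without control C and 0.21 without cytokine C, and 22 members (51.2%) had no overlap without control C, where 39.1% of all genes had none, and 22 without pair C, where 44.2% had none.

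**Figure D1:**
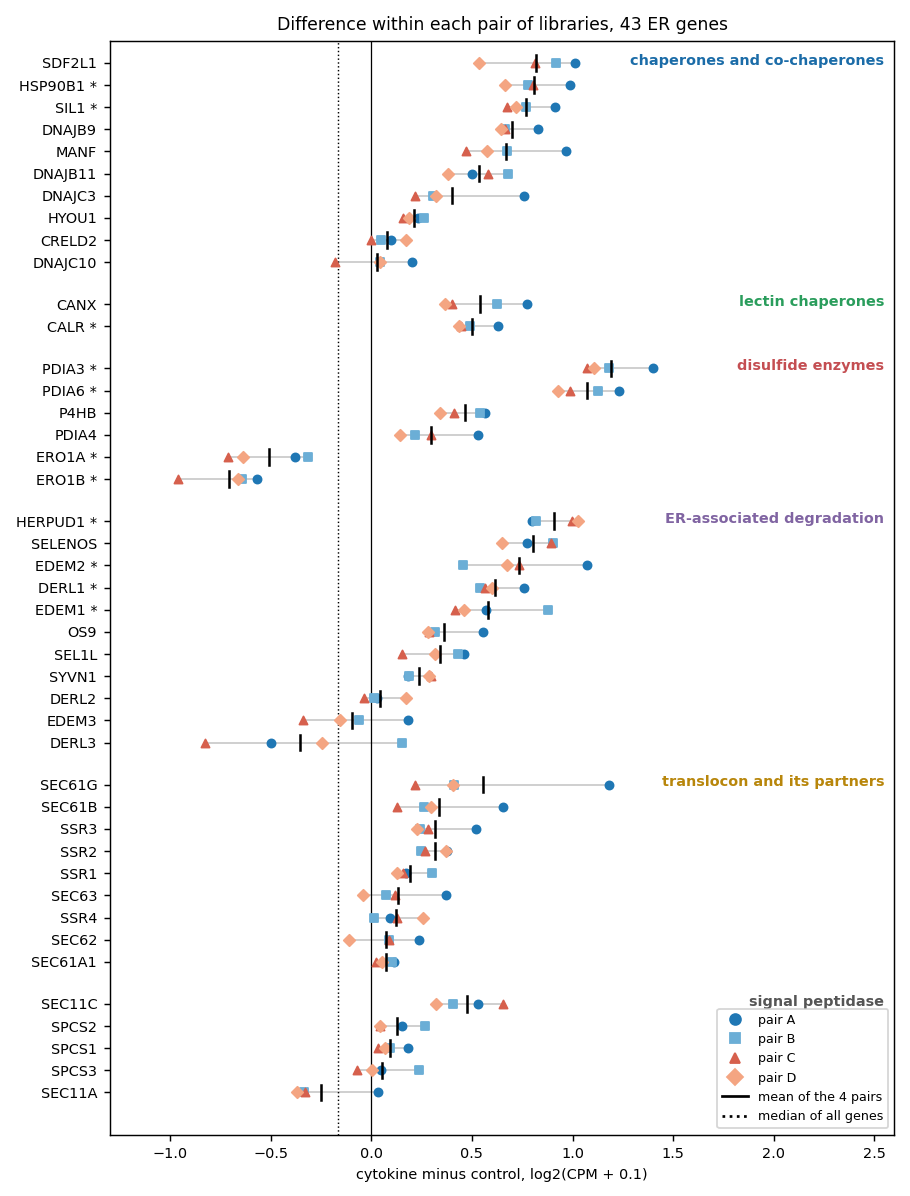
Cytokine minus control on log2(CPM + 0.1) within pairs A to D for each of the 43 members, by role; the black bar is the mean of the 4 pairs, the dotted line the median of all genes, and an asterisk marks a called member. PDIA3 and PDIA6 lie furthest to the right, the ERO1 oxidases lie left of 0 in every pair, and the medians of the translocon (0.19) and signal peptidase genes (0.09) are the lowest of the 6 roles.

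Among the chaperones, HSP90B1 and SIL1 rose. HSP90B1 (ENSG00000166598, chr12:103930107-103953645) encodes GRP94, the ER paralog of HSP90. Its level was 194, 216, 371 and 319 CPM in control libraries A to D and 384, 371, 648 and 506 CPM in cytokine libraries A to D. Control C, at 371 CPM, lay just above cytokine library B, so the groups overlapped. The mean went from 275 ± 84.1 CPM to 477 ± 129 CPM (SD, n = 4; log2 fold change 0.81, SE 0.24, adjusted p = 0.0264, limma), with a change of 0.88 in A and B taken alone, against 0.74 in C and D. The adjusted p passed 0.05 without control A, control B, cytokine C or cytokine D, where the log2 fold change was 0.66, 0.71, 0.65 and 0.77. SIL1 (chr5:138946720-139293557), the nucleotide exchange factor of BiP, was measured at 23.2, 26.1, 49.4 and 33.1 CPM in control libraries A to D and 43.7, 44.6, 79.0 and 54.7 CPM in cytokine libraries A to D. Again control C was the only control library above some of the cytokine libraries (A and B). Its mean went from 32.9 ± 11.7 CPM to 55.5 ± 16.4 CPM (SD, n = 4; log2 fold change 0.77, SE 0.25, adjusted p = 0.0379, limma). SIL1 lost its call without control A, B or D or cytokine C or D, with log2 fold changes of 0.62, 0.68, 0.79, 0.59 and 0.76.

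In 4 further chaperone genes the call depended on the fit. SDF2L1, a partner of ER J-domain proteins, was at 13.3, 11.7, 32.2 and 21.4 CPM in control libraries A to D and 27.1, 22.3, 56.6 and 31.1 CPM in cytokine libraries A to D. MANF, a secreted ER stress factor that also binds BiP, was at 37.4, 45.6, 92.4 and 61.8 CPM in control libraries A to D and 73.3, 72.9, 128 and 92.0 CPM in cytokine libraries A to D. The J-domain co-chaperone DNAJB9 (ERdj4) was at 16.1, 16.8, 37.8 and 25.0 CPM in control libraries A to D and 28.7, 26.7, 59.9 and 39.2 CPM in cytokine libraries A to D. In each of these genes control C lay above cytokine libraries A and B (and above D in SDF2L1 and MANF), and every pair was nonetheless higher with cytokines. DNAJB11 (ERdj3), another J-domain protein of the ER lumen, was at 17.1, 16.4, 29.3 and 26.0 CPM in control libraries A to D and 24.1, 26.3, 43.9 and 33.9 CPM in cytokine libraries A to D, with control C above cytokine libraries A and B and control D above A. The log2 fold changes were 0.82, 0.67, 0.70 and 0.53 with adjusted p-values (limma) of 0.0939, 0.0844, 0.108 and 0.111. With TMM they were 0.97, 0.82, 0.85 and 0.69, and all 4 were called (adjusted p = 0.0398, 0.0247, 0.0398 and 0.0275, limma). With the pairs as a block they were called on CPM too, with adjusted p-values of 3.07e-06, 5.37e-06, 2.59e-06 and 6.06e-05 in limma. Without control C alone, SDF2L1, MANF and DNAJB9 were called at 1.10, 0.91 and 0.95.

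The other 4 members of this role had smaller fold changes and were not called on CPM with all 8 libraries. DNAJC3 (P58IPK), which binds unfolded chains and inhibits PERK, had a log2 fold change of 0.40. It was called at 0.55 with TMM and the block, at 0.55 in DESeq2, and at 0.60 on CPM without control C. HYOU1 (GRP170), a large HSP70-like exchange factor, was at 0.21, with every pair higher. CRELD2 and the disulfide reductase DNAJC10 (ERdj5) were at 0.08 and 0.03, and their groups spanned nearly the same levels, 37.2 ± 4.57 CPM against 39.3 ± 4.48 CPM for CRELD2 and 86.2 ± 13.0 CPM against 87.2 ± 6.71 CPM for DNAJC10 (SD, n = 4). Over the 10 genes of the role the median log2 fold change was 0.60, with 2 called higher on CPM, 6 with TMM, 6 with the block and 7 with both.

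**Figure D2:**
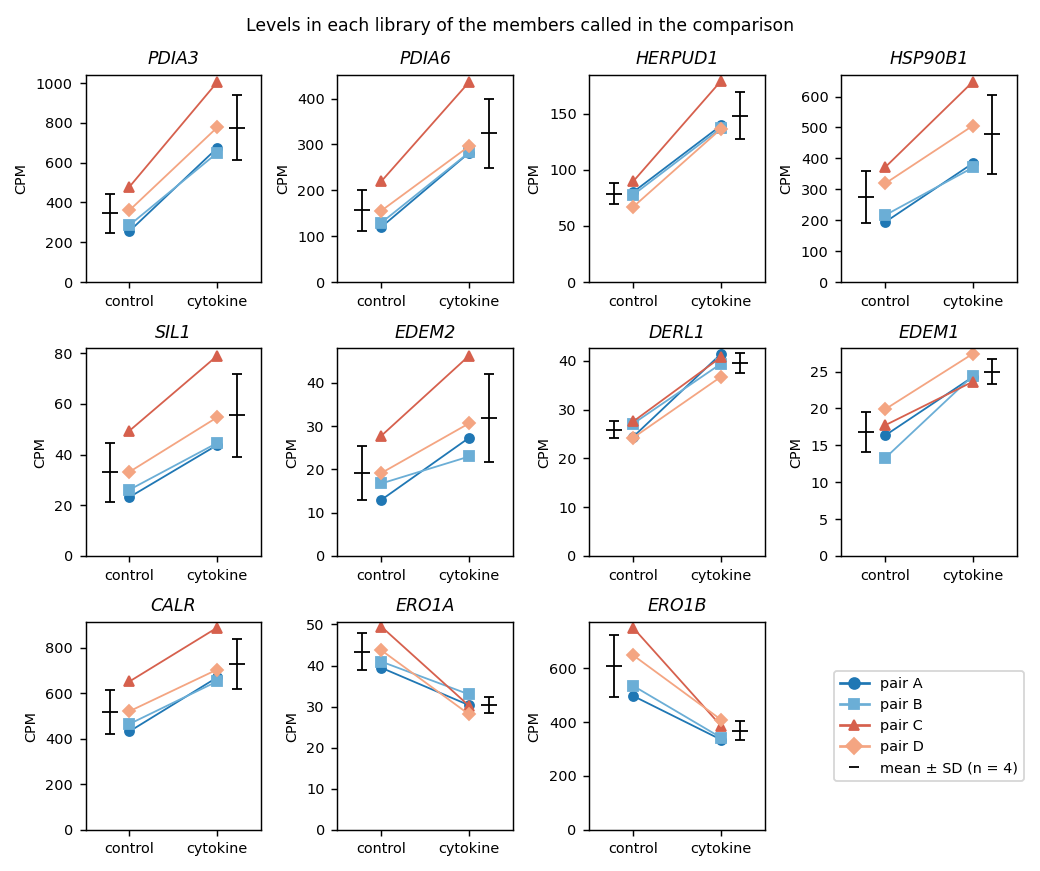
CPM of the 11 called members in each control and cytokine library, with lines joining the libraries of a pair and the mean ± SD (n = 4) at the side of each group. Pair C is the highest pair in most of the 9 genes that rose, DERL1 and HERPUD1 have control libraries that lie close together, and in ERO1A and ERO1B all 4 lines slope down.

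The lectin chaperones bind the monoglucosylated glycans of new glycoproteins. The level of CALR (ENSG00000179218, chr19:12938578-12944489), which encodes the soluble calreticulin, was 432, 465, 651 and 521 CPM in control libraries A to D and 669, 652, 888 and 704 CPM in cytokine libraries A to D. The lowest cytokine library (B) was just above control C, so the groups did not overlap. The mean rose from 517 ± 96.6 CPM to 728 ± 109 CPM (SD, n = 4; log2 fold change 0.50, SE 0.17, adjusted p = 0.0421, limma; exact permutation p = 0.0286, the smallest that 4 against 4 libraries allow). This change sat at the fold threshold. It was 0.65 with TMM (adjusted p = 0.00787, limma), and it lost the call when any library other than control C was left out, with log2 fold changes from 0.40 (without cytokine C) to 0.55 (without cytokine B); without control A, control B, control D, cytokine A and cytokine D it was 0.42, 0.46, 0.51, 0.54 and 0.51. CANX, the membrane-bound calnexin, was at 262, 292, 555 and 391 CPM in control libraries A to D and 449, 450.1, 734 and 504 CPM in cytokine libraries A to D. Control C exceeded cytokine libraries A, B and D, and all pairs were higher with cytokines. CANX was not called on CPM (log2 fold change 0.54, SE 0.24, adjusted p = 0.117, limma) and was called with TMM (0.69, adjusted p = 0.0341), with the block (adjusted p = 9.99e-06) and without control C (0.75).

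Among the disulfide enzymes 2 isomerases rose and both oxidases fell. PDIA3 (ENSG00000167004, chr15:43746392-43773279), the isomerase ERp57 that works with both lectin chaperones, was at 256, 286, 478 and 360.3 CPM in control libraries A to D and 674, 649, 1005 and 777 CPM in cytokine libraries A to D. Every cytokine library exceeded every control library. PDIA3 rose from 345 ± 99.3 CPM to 776 ± 162 CPM (SD, n = 4), 2.25-fold by the means (log2 fold change 1.19, SE 0.21, adjusted p = 0.00185, limma), with a change of 1.29 in A and B taken alone, against 1.09 in C and D. PDIA6 (chr2:10783391-10837977), the isomerase P5, was at 119.9, 129, 219.6 and 155 CPM in control libraries A to D and 282, 283, 436 and 296 CPM in cytokine libraries A to D. Its cytokine libraries A, B and D lay within 282 to 296 CPM, and C stood above them. The mean rose from 156 ± 45.0 CPM to 324 ± 74.9 CPM (SD, n = 4), 2.08-fold (log2 fold change 1.07, SE 0.21, adjusted p = 0.00305, limma), again without overlap. Both isomerases stayed called in every alternative run. Reads of PDIA3 and its listed pseudogene PDIA3P1 could be exchanged in counting. Of the exon bases of PDIA3, 18.9% lie opposite exons of AC018512.1, CATSPER2P1 and ELL3. In PDIA6 25.2% lie opposite exons of ATP6V1C2, although the library kit keeps strand.

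P4HB, the gene of PDI itself and per length the most abundant of the isomerases in control libraries, was at 545, 544, 888 and 684 CPM in control libraries A to D and 806, 791, 1181 and 868 CPM in cytokine libraries A to D. Control C lay above cytokine libraries A, B and D, while each pair was higher with cytokines. P4HB was not called on CPM (log2 fold change 0.47, SE 0.20, adjusted p = 0.101, limma) but was called with TMM (0.62, adjusted p = 0.0254) and without control C (0.61). With the block its adjusted p was 6.55e-06 (limma), but the change on CPM stayed under the fold threshold. PDIA4 (ERp72) was at 51.0 ± 13.1 CPM and 62.3 ± 14.5 CPM (SD, n = 4), a difference of 0.30 on the log2 scale that was not called in any of the fits on CPM or TMM, with or without the block.

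The oxidases that pass electrons from isomerases to oxygen moved the other way. ERO1B (ENSG00000086619, chr1:236215555-236281985), the form enriched in pancreatic islets, was at 498, 535, 751 and 649 CPM in control libraries A to D and 335, 343, 386 and 409 CPM in cytokine libraries A to D. All cytokine libraries lay below all control libraries. It fell from 608 ± 115 CPM to 368 ± 35.5 CPM (SD, n = 4; log2 fold change -0.71, SE 0.16, adjusted p = 0.00607, limma) and was -0.56 with TMM (adjusted p = 0.0092, limma), with a change of -0.61 in A and B taken alone, against -0.81 in C and D. ERO1A (chr14:52639916-52695900), the widely expressed form, was at 39.5, 41.0, 49.5 and 43.7 CPM in control libraries A to D and 30.3, 33.0, 30.2 and 28.1 CPM in cytokine libraries A to D. These groups did not overlap either, and the cytokine libraries were closer together than the control libraries. Its mean went from 43.4 ± 4.42 CPM to 30.4 ± 1.99 CPM (SD, n = 4; log2 fold change -0.51, SE 0.12, adjusted p = 0.0073, limma). ERO1A kept its sign with TMM at -0.36 (adjusted p = 0.0235, limma) but missed the fold threshold, as it did without control C (-0.45) or cytokine D (-0.47). The difference between the oxidases and the isomerases in their response was not tested. Over the 6 genes, 2 were called higher and 2 lower on CPM and with the block, and 3 higher and 1 lower with TMM, with and without the block.

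**Figure D3:**
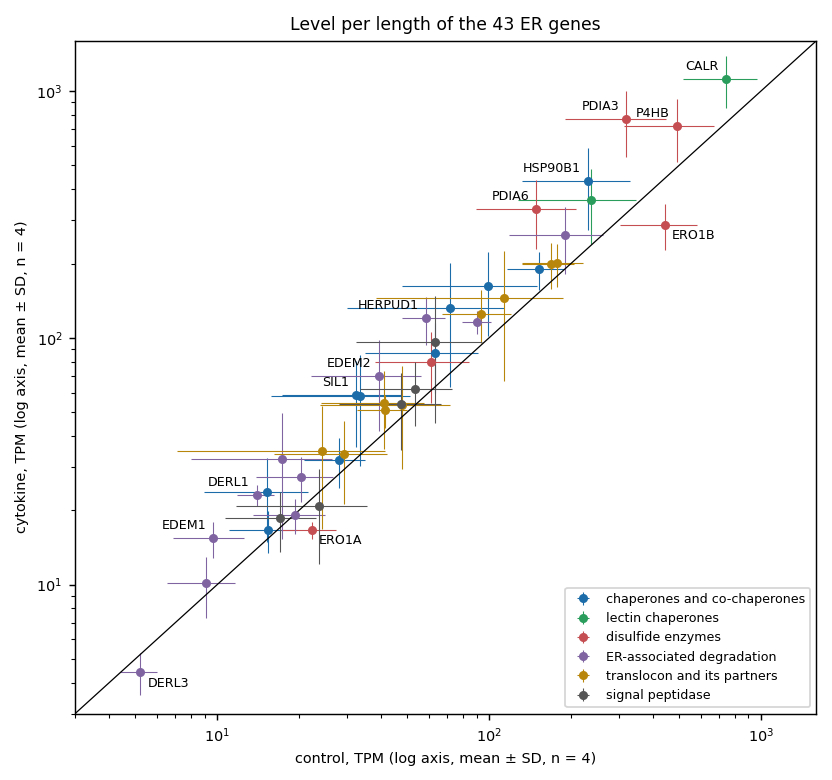
Level of each member in TPM (reads per kilobase of exon, scaled to the same total in each library) in control (horizontal) and cytokine libraries (vertical), both on log axes, as mean ± SD of 4 libraries and coloured by role; the diagonal marks equal levels. CALR, P4HB and PDIA3 are the highest members and lie above the diagonal, ERO1B lies below it at a high level, and DERL3 is the lowest member.

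Genes of ER-associated degradation contributed 4 of the 9 rises. HERPUD1 (chr16:56932048-56944863), which organises the HRD1 complex in the ER membrane, was at 80.2, 77.7, 89.7 and 67.0 CPM in control libraries A to D and 139, 137, 179 and 136 CPM in cytokine libraries A to D. All cytokine libraries stood above all control libraries, and control C was only slightly above control A. The mean rose from 78.6 ± 9.33 CPM to 148 ± 20.8 CPM (SD, n = 4), 1.88-fold (log2 fold change 0.91, SE 0.13, adjusted p = 0.000541, limma), with a change of 0.81 in A and B taken alone, against 1.01 in C and D. DERL1 (chr8:123013164-123042423), a derlin that forms part of the channel for retrotranslocation, was at 24.4, 27.1, 27.6 and 24.2 CPM in control libraries A to D and 41.4, 39.4, 40.7 and 36.7 CPM in cytokine libraries A to D. The groups lay apart, and the SE was the smallest among the called genes, with 25.8 ± 1.75 CPM against 39.6 ± 2.07 CPM (SD, n = 4; log2 fold change 0.61, SE 0.11, adjusted p = 0.0017, limma). HERPUD1 and DERL1 stayed called in all 24 alternatives.

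The EDEM proteins trim mannose from glycoproteins that are to be degraded, and 2 of the 3 were called. EDEM1 was at 16.3, 13.3, 17.7 and 19.9 CPM in control libraries A to D and 24.3, 24.5, 23.6 and 27.4 CPM in cytokine libraries A to D. The groups did not overlap, and the change (log2 fold change 0.58, SE 0.14, adjusted p = 0.011, limma) lost its call only without control B (0.47) among the libraries left out. EDEM2 was at 13.0, 16.7, 27.8 and 19.2 CPM in control libraries A to D and 27.3, 23.0, 46.3 and 30.7 CPM in cytokine libraries A to D. Control C lay above cytokine libraries A and B. EDEM2 only just passed (log2 fold change 0.73, SE 0.25, adjusted p = 0.0493, limma), and it failed without control A, B or D (0.57, 0.69 and 0.75) and without cytokine A, C or D (0.79, 0.54 and 0.73). EDEM3 was at 38.6 ± 6.33 CPM and 35.8 ± 1.98 CPM (SD, n = 4), and its log2 fold change of -0.09 turned to 0.06 with TMM, neither called.

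SELENOS, a selenoprotein that recruits the p97 ATPase to the ER, and OS9, a lectin that delivers glycoproteins to HRD1, were called only in some fits. SELENOS was at 10.6, 10.5, 24.5 and 19.4 CPM in control libraries A to D and 18.2, 19.7, 45.6 and 30.5 CPM in cytokine libraries A to D. Its levels in C and D were higher than in A and B in both groups, and control C was above cytokine libraries A and B, control D above A. On CPM the gene was not called (log2 fold change 0.80, SE 0.34, adjusted p = 0.0971, limma). It was called with TMM at 0.96 (adjusted p = 0.04), with the block (adjusted p = 2.1e-06) and without control C (1.03). OS9 was at 192, 222, 349 and 245 CPM in control libraries A to D and 283, 276, 427 and 297 CPM in cytokine libraries A to D. Control C exceeded cytokine libraries A, B and D, and each pair was higher with cytokines. OS9 changed from 0.36 on CPM (adjusted p = 0.202, limma) to 0.51 with TMM (adjusted p = 0.0498, limma), and to 0.53 without control C, where it was called too.

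The remaining 4 genes of degradation were not called on CPM or TMM. SEL1L, the adaptor of HRD1, had a log2 fold change of 0.34 with every pair higher. SYVN1, the ubiquitin ligase HRD1 itself, was at 0.24 with every pair higher, although its control libraries A and B (168 and 159 CPM) exceeded cytokine libraries C and D (125 and 129 CPM). The derlins DERL2 and DERL3 were at 0.04 and -0.36; DERL3 had 2.74 to 6.33 CPM in the 8 libraries, and 77.002% of its exon bases lie opposite exons of SMARCB1. Over the 11 genes the median log2 fold change was 0.36, with 4 called higher on CPM, 6 with TMM, 5 with the block and 6 with both.

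The translocon genes gave no call on CPM or with TMM. SEC61A1, the channel-forming subunit, was at 215 ± 31.3 CPM and 226 ± 27.3 CPM (SD, n = 4), which is 0.07 on the log2 scale. The small subunits SEC61B and SEC61G were at 0.34 and 0.55. SEC61G was 4.62, 6.60, 19.6 and 13.3 CPM in control libraries A to D and 10.6, 8.82, 22.8 and 17.6 CPM in cytokine libraries A to D. Its libraries C and D were above A and B whatever the treatment, by more than the cytokine libraries were above the controls, and it was called only with the block or a term for the name ending (0.55, adjusted p = 0.00332, limma; 0.71 with TMM as well). SEC62 and SEC63, which assist post-translational entry, were at 0.08 and 0.13. The translocon-associated proteins SSR1, SSR2, SSR3 and SSR4 were at 0.19, 0.32, 0.32 and 0.12. The median of the 9 genes was 0.19, and 7 of them were higher with cytokines in all 4 pairs.

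The signal peptidase had the lowest median of the 6 roles, 0.09. SPCS1, SPCS2 and SPCS3, the accessory subunits, had log2 fold changes of 0.09, 0.13 and 0.05. The catalytic subunits SEC11A and SEC11C were at -0.25 and 0.48. SEC11C had 71.8 ± 26.8 CPM in control and 102 ± 46.0 CPM in cytokine libraries (SD, n = 4), was higher in every pair, and was called only with TMM and the block together (0.63). SEC11A was lower with cytokines in 3 of the 4 pairs and was called in none of these fits. Of the exon bases of SPCS1, 58.1% lie opposite exons of GLT8D1 and NEK4.

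Compared per length, the members spanned from 742 ± 227 TPM in control and 1123 ± 268 TPM in cytokine libraries for CALR to 5.20 ± 0.808 and 4.41 ± 0.853 TPM for DERL3 (SD, n = 4). In control cells P4HB (491 ± 179 TPM) and ERO1B (443 ± 139.7 TPM) followed CALR, and their means were closer together than the SD between libraries. PDIA3 (319.9 ± 129 TPM) came next. With cytokines the order after CALR was PDIA3 (770.3 ± 232 TPM), P4HB (721 ± 206 TPM), HSP90B1 (430.3 ± 157 TPM), CANX (360.5 ± 121 TPM) and PDIA6 (332 ± 103 TPM), with ERO1B at 288 ± 61.5 TPM. The means of PDIA3 and P4HB were closer together than the SD between libraries, as were those of CANX and PDIA6. That SD includes differences that the genes of a library share, and the order of genes within each library was not tested. Within the roles, over all 8 libraries HSP90B1 was the highest chaperone per length and DNAJC10 the lowest, OS9 the highest gene of degradation and DERL3 the lowest, SEC61A1 the highest of the translocon, just above SSR4, and SEC61G the lowest, and SEC11C the highest signal peptidase subunit and SPCS3 the lowest. Length was the union of all annotated exons, 21835 bases in DNAJC10. On CPM DNAJC10 was not the lowest chaperone, with a control mean of 86.2 CPM against 19.7 CPM for SDF2L1.

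The libraries of C and D differed from those of A and B in most members before any treatment. Among control libraries the mean of C and D was above that of A and B by a median of 0.57 on the log2 scale over the members and 0.18 over all genes. The difference exceeded 0.5 in 26 of the 43 members (60.5%) and in 32.0% of all genes. It was 1.53 in SEC61G, 1.06 in SDF2L1, 1.04 in SELENOS and -0.65 in SYVN1, against -0.03 in HERPUD1 and 0.01 in DERL1. The median cytokine change of the members was 0.44 within A and B and 0.27 within C and D, where the medians of all genes were -0.10 and -0.22. In 39 members the sign was the same within both, and in 36 the change was more positive within A and B. Among 135 other ER genes, described below, these counts were 108 and 94, and they were not taken over all genes. An interaction term for the treatment and the ending of the column name passed an FDR of 0.05 in 0 members (limma); 0 had an unadjusted p below 0.05, and the smallest, 0.088, was that of ERO1A. Over all genes 5 passed and 488 had an unadjusted p below 0.05. What the endings stand for is not stated, and its part in these levels was not tested.

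**Figure D4:**
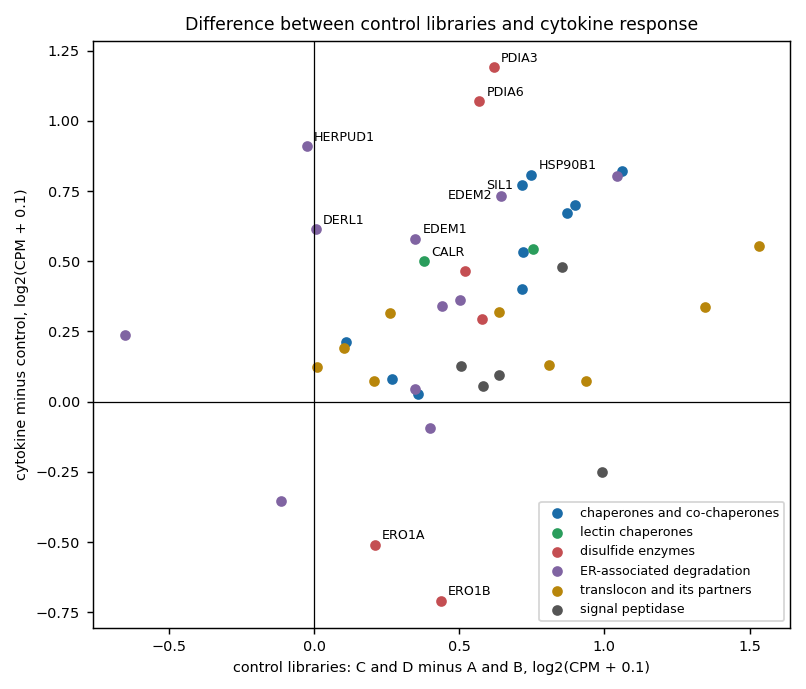
For each member, the difference between control libraries C and D and control libraries A and B (horizontal) against the cytokine minus control difference (vertical), both on log2(CPM + 0.1), coloured by role, with called members named. Most members lie right of 0, HERPUD1 and DERL1 lie on the vertical line with a clear rise, and the translocon genes with the largest difference between control libraries were not called.

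Of 139 other ER genes, listed by role, 135 were in the table. Of these 17 were called higher and 4 lower, where 9.52% and 17.5% of all genes were. Their median log2 fold change was 0.12, against -0.17 over all genes. With TMM 28 were called higher and 2 lower (13.0% and 11.7% of all genes), and with TMM and the block 36 and 2 (15.8% and 16.4% of all genes). HSPA5, the gene of BiP, went from 333 ± 105 CPM to 503 ± 140.4 CPM (SD, n = 4; log2 fold change 0.61, SE 0.24, adjusted p = 0.0805, limma). It was higher in every pair and was called with TMM (0.76, adjusted p = 0.0221, limma), with the block (adjusted p = 1.68e-06), without control C (0.79) and without pair C. Of 20 other chaperones 3 were higher and 1 was lower, led by the prolyl isomerases FKBP11 (0.99) and PPIB (0.84). Of 17 other disulfide enzymes 2 were higher and 1 lower, with the oxidase QSOX1 at 1.21 and the isomerase PDIA2, at 1.82 ± 0.373 CPM and 0.809 ± 0.167 CPM, at -1.07. None of 7 genes of glycan processing was called, and 1 of 12 of the oligosaccharyltransferase, DAD1 (0.53), was. Of 31 other genes of degradation 1 was called, ERLIN1 (1.32), an ER lipid raft protein, which went from 11.3 ± 1.93 CPM to 28.2 ± 3.00 CPM. Of 28 genes of targeting and insertion EMC7 was higher (0.82) and UBL4A lower (-0.64), the latter not called with TMM (-0.49). DAD1 lost its call without control A, B or D or cytokine C or D (0.47, 0.49, 0.49, 0.40 and 0.54), and UBL4A without control C or D or cytokine A, B or D (-0.45, -0.65, -0.62, -0.56 and -0.63).

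Of 20 genes of unfolded protein response signalling 9 were higher and 1 was lower (9.52% and 17.5% of all genes), with a median of 0.41. The transcription factor gene ATF3 went from 1.95 ± 0.381 CPM to 140.5 ± 52.6 CPM (SD, n = 4; log2 fold change 6.05, SE 0.24, adjusted p = 2.41e-08, limma), and PPP1R15A (GADD34), which reverses the PERK-dependent block of translation, from 34.98 ± 5.17 CPM to 302 ± 97.6 CPM (log2 fold change 3.07, SE 0.20, adjusted p = 1.08e-06, limma). Both had ranges far apart between the groups. Of the 3 sensors, EIF2AK3 (PERK) rose by 0.997 and ERN1 (IRE1) by 0.75 on the log2 scale, with adjusted p-values of 0.000305 and 0.00699 (limma). ATF6 was at 37.6 ± 6.90 CPM and 37.7 ± 4.18 CPM (SD, n = 4; log2 fold change 0.02, SE 0.15, adjusted p = 0.946, limma). Downstream of PERK, ATF4 rose by 0.74 and DDIT3 (CHOP) by 1.06 (adjusted p = 0.00511 and 0.000359, limma). XBP1, the target of IRE1, was higher in every pair and not called on CPM (log2 fold change 0.41, SE 0.16, adjusted p = 0.0789, limma), and was called with TMM (0.56, adjusted p = 0.013, limma) and without control C (0.53). Its spliced form cannot be told from counts per gene.

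**Figure D5:**
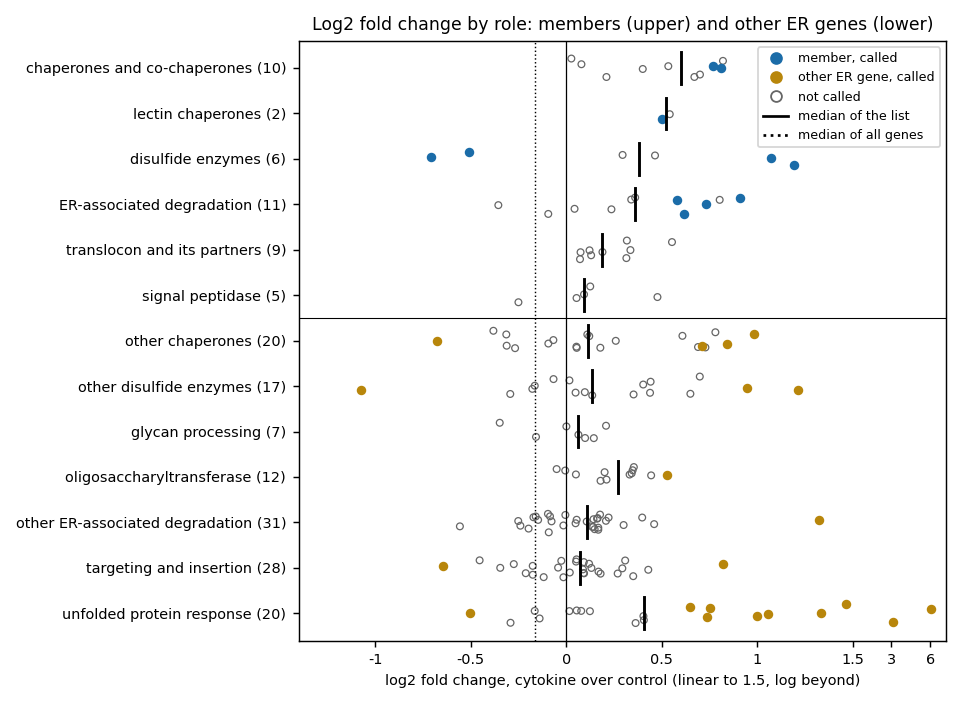
Log2 fold change (cytokine over control, linear to 1.5 and logarithmic beyond) of the 43 members by role, above the line, and of 135 other ER genes by list, below it; filled points were called, bars are list medians and the dotted line is the median of all genes. Among the members' roles the medians fall from 0.60 in the chaperones to 0.09 in the signal peptidase, and ATF3 and PPP1R15A stand far to the right of the other genes.

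The 8 libraries had 36577438 to 40117636 reads on the listed genes, and the lowest value of any member was 2.74 CPM, in DERL3. In bulk RNA fewer cells with a transcript and less of it per cell cannot be told apart. The beta-cell markers INS, IAPP, CHGA and PDX1 were all abundant, and of 10 such markers 0 were called higher in limma (2 at an unadjusted p under 0.05) and 5 lower (PDX1, NKX2-2, SLC30A8, G6PC2 and ABCC8), where 17.5% of all genes were lower. IAPP (0.93), NKX6-1 (0.39), PCSK1 (0.42) and CHGA (0.39) were higher in all 4 pairs. With TMM 1 was called higher and 4 lower, with TMM and the block 4 and 4, and edgeR with TMM called 2 higher and 4 lower. Of 27 markers of other islet, exocrine, ductal, mesenchymal, endothelial and immune cells 13 were in the table; ACTA2 was called higher (0.687 to 8.88 CPM) and CPA1 lower (8.41 to 4.04 CPM). The summed level of the mesenchymal markers was 3.96 to 6.19 CPM in control and 13.3 to 16.3 CPM in cytokine libraries. Within that sum ACTA2 changed most, while COL1A1 (means of 0.266 and 0.350 CPM) and PDGFRB (4.15 and 5.47 CPM) were not called on CPM. The sum of the exocrine markers was 9.58 to 12.4 and 4.49 to 6.71 CPM, that of the ductal markers 87.3 to 163 and 89.9 to 169 CPM, and that of the other islet markers 471 to 2186 and 560 to 2002 CPM. The highest of these, SST, had means of 1219 and 1216 CPM, while PRSS1, PTPRC, CD68, CD3E, PECAM1, VWF and CDH5 are not among the listed genes. The part of these markers in the members' changes was not tested.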

How the data were processed

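RNA of 4 control and 4 cytokine-treated samples was sequenced by the authors from strand-specific mRNA libraries. Per the submitters' notes, TopHat2 2.1.1, HTSeq 0.9.1 and edgeR were used on GRCh38, and the methods name Ensembl release 107. The authors dropped genes that did not exceed 0.5 CPM in 4 or more samples, and they deposited CPM. Another 4 columns of values were not used. The deposited CPM values were whole multiples of 1 read within 0.01 read, so reads (36577438 to 40117636 per library) were recovered for edgeR 4.0.16 and DESeq2 1.42.0, run as alternatives. The library totals behind CPM were larger, 46767972 to 51145634 reads. The share outside the listed genes was 26.6% in control D and 26.5% in cytokine library D, and 20.1% to 21.0% in the other libraries. The study's test was edgeR's quasi-likelihood test; because CPM is not a count, limma 3.58.1 (R 4.3.3) on log2(CPM + 0.1) was the main test here, with an intensity trend, all 8 libraries, no block and Benjamini-Hochberg adjustment over 16525 genes. Fold changes are on that scale. Values were tabulated in Python 3.11.15 (numpy 2.4.6, pandas 2.3.3, scipy 1.17.1) and drawn with matplotlib 3.10.9.

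Coordinates, exon lengths and exon overlaps are from GENCODE 29 (GRCh38) and promoter windows from RefSeq (GRCh38.p14). The largest shares of exon bases on the same strand as another gene were 8.39% in SYVN1 (FAU and MIR6751) and 7.87% in DNAJB11 (AC068631.2). A kit that keeps strand does not separate these. Level order is by TPM. The columns carry no replicate number, so the block used the shared name stems. Across genes the deviations from the group means had a correlation of 0.457 in pair A, 0.504 in B, 0.748 in C and 0.681 in D. It was 0.447 for control A with cytokine library B and 0.489 for control B with cytokine library A, so the check does not tell A from B. No library was a copy of another of its group (the chi-square of their reads, divided by the number of genes, was at least 5.887). The fits were run on simulated reads without differences between pairs, so that run cannot speak to the part of pair C or of the block. The members and the lists were chosen with earlier results of these data known. By the naming rule, all members are accounted for, with every library given for those called, those whose call differs with TMM and the 3 of highest level per length; of other ER genes, HSPA5, XBP1, ATF4, DDIT3, ERN1, ATF6, EIF2AK3 and the 2 called genes of largest change per list are named. Alternatives covered scaling (TMM, median of ratios, CPM over listed genes), pseudocounts of 0.5 and 1, a mean of at least 1 CPM, the trend, the test, TPM, the block, a term for the name ending and each library left out; the block with TMM and leaving out pair C were chosen after seeing the data.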

Additional observations from a re-analysis of the deposited data

Results flagged for a closer look

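In 18 of 120 groups of 4 libraries, over the members and the named other ER genes, 1 library lay far from the other 3 relative to the range of the group; chance flags about 1 in 20 groups, but these groups share the same 8 libraries and are not independent. All 18 were high values, and 17 were in pair C. Among the members, cytokine library C was at 436 CPM in PDIA6 (the others 282 to 296), 179 CPM in HERPUD1 (136 to 139), 427 CPM in OS9 (276 to 297) and 264 CPM in SSR4 (201 to 210). SEC61A1 was at 262 CPM in control C (197 to 201) and at 267 CPM in cytokine library C (208 to 216), and SSR2 was at 203 CPM in control C (143 to 149). Among the other ER genes, FKBP11 was at 32.4 CPM in control C and 57.7 CPM in cytokine library C, and PPIB at 288 and 478 CPM. QSOX1 was at 261 CPM, EMC7 at 70.04 CPM, ATF4 at 449 CPM and PPP1R15A at 448 CPM in cytokine library C. DAD1 was at 64.1 CPM and XBP1 at 209.5 CPM in control C, and DDIT3 at 10.3 CPM in control A. PDIA6 and HERPUD1 were called with pair C left out. The cause was not tested.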

How the results depend on the processing

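The members called on CPM were 11, 9 higher and 2 lower, with a median log2 fold change of the members of 0.34. With TMM 18 were called (17 higher, 1 lower), the median was 0.49, and 17 members had no overlap between conditions in place of 8. With median-of-ratios scaling 18 were called (17 higher, 1 lower), with a median of 0.50 and 18 without overlap (13.3%, 11.4% and 31.4% of all genes). edgeR with TMM called 17 (16 higher, 1 lower; median 0.475; 24.6% of all genes called), and DESeq2 19 (18 higher, 1 lower; median 0.49; 27.2% of all genes called), with 34 other ER genes called in place of 21. With TPM 4 were called, all higher (median 0.45, 5 without overlap), a share of 9.3% near the 8.28% of all genes called higher, and 23.1% of all genes did not overlap; 0 were called lower in limma on TPM, where 1 was lower at an unadjusted p under 0.05, and 1 was called lower by edgeR with TMM. A pseudocount of 1 left 1 called lower. With the replicate block 18 members were called in limma, 16 of them higher, as with a term for the name ending (18 and 16; 11.1% of all genes higher). The block with TMM gave 21 in edgeR (20 higher, 1 lower, median 0.49) and 21 in limma (20 higher, 1 lower, median 0.49), and 38 other ER genes in each. Of all genes 32.1% and 32.2% were called in these fits. With pair C left out 1 was called lower and 22 did not overlap. Leaving out single libraries gave 6 to 18 members called, 4 to 17 higher, 1 to 2 lower, medians of 0.21 to 0.49 and 8 to 22 without overlap. At the low end the share of members called higher (9.3%, without control B) was near that of all genes (8.32%). The cause of these shifts was not tested. PDIA3, PDIA6, HERPUD1 and DERL1 kept their calls in all 24 alternatives.

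The genes that changed sign in the settings run were not called. EDEM3 was at 0.058 with TMM, 0.068 with median-of-ratios scaling, 0.054 in edgeR with TMM, 0.064 in DESeq2, 0.023 with TPM, 0.057 with the block in edgeR and 0.058 with the block in limma with TMM. With single libraries left out, DNAJC10 ranged from -0.058 to 0.10, DERL2 from -0.035 to 0.13, SEC61A1 from -0.0096 to 0.17, SEC62 from -0.14 to 0.29, SEC63 from -0.033 to 0.29, SPCS1 from -0.057 to 0.26, SPCS2 from -0.0084 to 0.29, SPCS3 from -0.088 to 0.18 and ATF6 from -0.089 to 0.125. In all, 881 of 1032 comparisons of a member with an alternative kept direction and side of the threshold. On CPM the block changed no call other than those of 7 members and of HSPA5 among the named genes. The interaction with the name ending passed in 0 members (limma) under each setting it was run with, with 0 at an unadjusted p under 0.05 on CPM. The precision is limited by 4 libraries a group, and nothing says that the pairs are separate cultures. The part of pair C in it was not tested.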
